A study of Mus musculus with 12 samples.

Results

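Transcripts of 8 interferon regulatory factor genes (Irf1, Irf2, Irf3, Irf4, Irf5, Irf7, Irf8 and Irf9) and of Ifnb1, which encodes interferon-β, were followed in mouse bone marrow-derived dendritic cells (BMDCs). These 9 genes were chosen by symbol from the 55335 genes listed in the RSEM tables, and all 9 passed the filter on low counts, which kept 14357 genes. BMDCs were grown for 6 days with GM-CSF from bone marrow of C57BL/6 mice that carry the CreER transgene, and every group was of this genotype, called WT because the Ctcf alleles were intact. The cultures also received 4-hydroxytamoxifen, which activates CreER. By the methods given for them, the mice were adults of both sexes and CD11c+ cells were selected with beads. The 4 groups of 3 libraries were WT (untreated), WTL (100 ng/ml LPS for 3 h), WT+JSH23 (100 µM JSH-23 for 3 h) and WTL+JSH23 (both agents, JSH-23 first). For WTL+JSH23, 3 h are listed for each agent. Whether total exposure to JSH-23 was equally long in both JSH-23 groups was not settled here. Their comparison may therefore carry a difference in exposure. LPS is a component of the Gram-negative cell wall that acts through the receptor TLR4, and JSH-23 is a small molecule inhibitor of NF-κB that keeps RelA out of the nucleus. For RNA-seq the study's methods give 3 biological replicates per condition. Neither those methods nor the labels say whether replicates came from separate mice or from separate cultures. The p values therefore measure the spread between these libraries, and how much of it lies between mice is not known.

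Interferon regulatory factors (IRFs) are transcription factors that share a DNA-binding domain and recognise GAAA repeats in the interferon-stimulated response element (ISRE). IRF3 and IRF7 are activated by phosphorylation downstream of TLR4 and of nucleic acid sensors and switch on Ifnb1 together with NF-κB. Secreted interferon-β then acts through its receptor to form a complex that contains IRF9 and induces interferon-stimulated genes, Irf7 among them. IRF4 and IRF8 are lineage factors of myeloid and dendritic cells that bind DNA with partners such as PU.1 and BATF3, and IRF2 can oppose IRF1 at shared sites.

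Each library held between 24664724 and 34837847 expected counts. Levels of 1 gene between libraries are given in CPM, which are counts relative to a library size corrected by TMM (a trimmed mean of log ratios between libraries), and levels between genes in TPM, which are also per transcript length. A gene passed at an adjusted p under 0.05 in the quasi-likelihood test of edgeR over all genes, and standard errors (SE) belong to log2 fold changes. The TMM factors were 0.859 to 0.88 in WTL, 0.939 to 0.956 in WTL+JSH23, 1.08 to 1.09 in WT and 1.11 to 1.12 in WT+JSH23, so scaling and group moved together. Without TMM, with library totals only, the median log2 fold change of all genes with LPS was -0.377 without JSH-23 and -0.257 after it. The summed TPM of 10 dendritic cell markers lay between 21700 and 24600 in every library. Of the 9 of these tested, 7 passed as higher and 0 as lower with LPS without JSH-23. With JSH-23 under LPS, 2 of these passed as higher and 6 as lower. The summed TPM of 10 macrophage markers was 2440 to 2550 in WT, 1640 to 1760 in WTL, 1590 to 1660 in WT+JSH23 and 1180 to 1230 in WTL+JSH23. The macrophage marker sum was thus lower with each agent, and its part in the changes of the members was not tested. Of the 9 macrophage markers tested, 2 (Mertk and Adgre1) passed as higher and 6 as lower with LPS without JSH-23. With JSH-23 under LPS, 1 of them (Mrc1) passed as higher and 7 as lower. Summed TPM of 10 neutrophil markers was 367 to 379 in WT, 321 to 335 in WTL, 318 to 345 in WT+JSH23 and 270 to 291 in WTL+JSH23. Mmp8 was the most abundant of them in CPM, and of the 7 neutrophil markers tested 4 passed as higher with LPS and 1, Mmp8, as lower, while all 7 passed as lower with JSH-23 under LPS. Summed TPM of 6 plasmacytoid dendritic cell markers was 35.8 to 38.8 in WT, 51.3 to 56.0 in WTL, 27.2 to 27.7 in WT+JSH23 and 39.2 to 43.5 in WTL+JSH23. Of these, Siglech and Ly6d had at most 3 counts in every library, and with LPS Tcf4 passed as higher while Ccr9 and Pacsin1 passed as lower. The part of these marker changes in the results was not tested. Marker sums stayed at or below 0.63 TPM for 5 B cell genes, 6.19 TPM for 6 T and NK cell genes and 1.95 TPM for 5 mast cell and basophil genes. WTL+JSH23 replicate 3 stood apart from its group, with a chi-square per gene of 8.18 and 9.11 against replicates 1 and 2, beside 2.33 to 4.5 for all other replicate pairs. Without it the only calls on members that changed were the interaction of Irf2 (-0.14, adjusted p = 0.0835) and the LPS change of Irf3 after JSH-23 (-0.17, adjusted p = 0.0342). In bulk samples, fewer cells of a type and less RNA per cell cannot be told apart. Groups with and without JSH-23 carry different replicate numbers (1 to 3 and 4 to 6) and no source says whether WT and WTL received the solvent, so JSH-23 cannot be told apart from solvent or preparation in any comparison of groups with and without it.

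In untreated WT, Irf7 was the most abundant member at 714 ± 20.0 TPM (SD, n = 3). It was followed by Irf8 at 395 ± 22.3 TPM, Irf5 at 363 ± 8.85 TPM and Irf1 at 239 ± 0.935 TPM. Irf9 at 109 ± 2.43 TPM and Irf2 at 86.9 ± 2.78 TPM came next, ahead of Irf3 at 54.4 ± 1.11 TPM and Irf4 at 44.1 ± 3.48 TPM. Ifnb1 was last at 1.29 ± 0.229 TPM. No neighbours in this order overlapped between libraries of WT. Irf7 led in every group by its mean, but in WTL+JSH23 its libraries (428, 459 and 444 TPM) overlapped those of Irf1 (426, 429 and 435 TPM). Of the TPM summed over the 8 IRF genes, Irf1 took 11.9% in WT, 22.4% in WTL, 9.54% in WT+JSH23 and 24.5% in WTL+JSH23. Irf5 moved the other way with LPS, from 18.1% to 10.3% without JSH-23 and from 21.6% to 12.9% after it. Overlapping neighbours elsewhere were Irf2 and Irf3 in WTL, and Irf4 with Irf9 and Irf3 with Irf2 in WTL+JSH23.

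**Figure D1:**
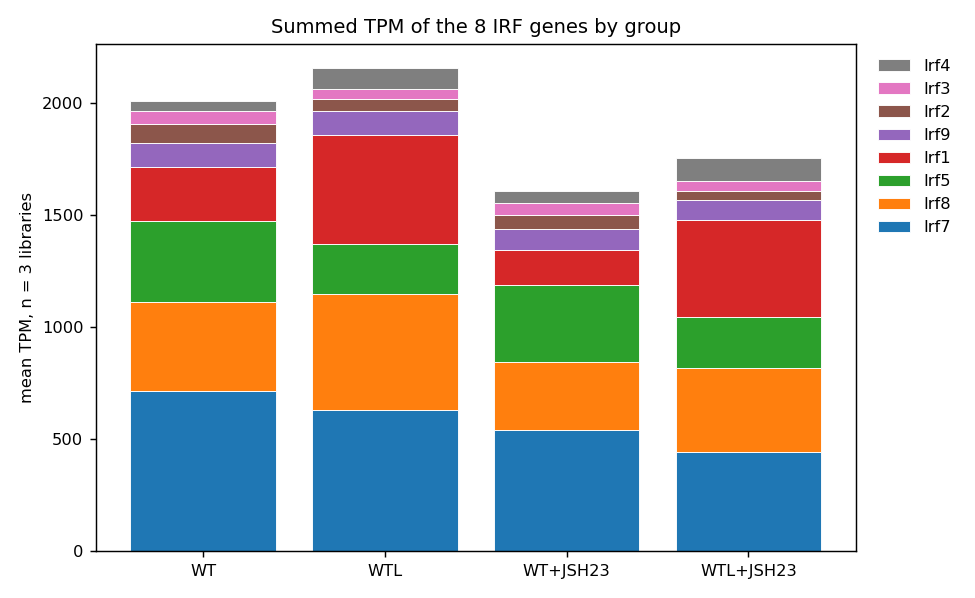
Mean TPM of the 8 IRF genes stacked for each group (3 libraries each); each colour is 1 gene and the bar height is their sum. The Irf1 segment widens from 11.9% of the sum in WT to 22.4% in WTL, and from 9.54% in WT+JSH23 to 24.5% in WTL+JSH23, while Irf7 remains the largest segment by its mean.

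The response to LPS without JSH-23 was examined first, as the reference for the inhibitor. Of the 9 members, 6 passed as higher in WTL than in WT (Irf1, Irf4, Irf7, Irf8, Irf9 and Ifnb1), beside 31.0% of all genes tested that passed as higher. Irf2 and Irf5 passed as lower, beside 34.7% of all genes, and Irf3 did not pass. More than 2-fold higher were Irf1, Irf4 and Ifnb1, against 7.36% of all genes, and no member was more than 2-fold lower, against 9.09%. The median log2 fold change was 0.34 over the members and -0.047 over all genes. After JSH-23, 5 members passed as higher with LPS (27.4% of all genes) and 2 as lower (27.1%). The 3 members over 2-fold higher were again Irf1, Irf4 and Ifnb1 (5.85% of all genes), with none over 2-fold lower (4.49%) and a member median of 0.14 beside -0.018. These counts and directions hold under TMM scaling; Irf7, Irf9 and Irf3 depended on the scaling, as given for each below.

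**Figure D2:**
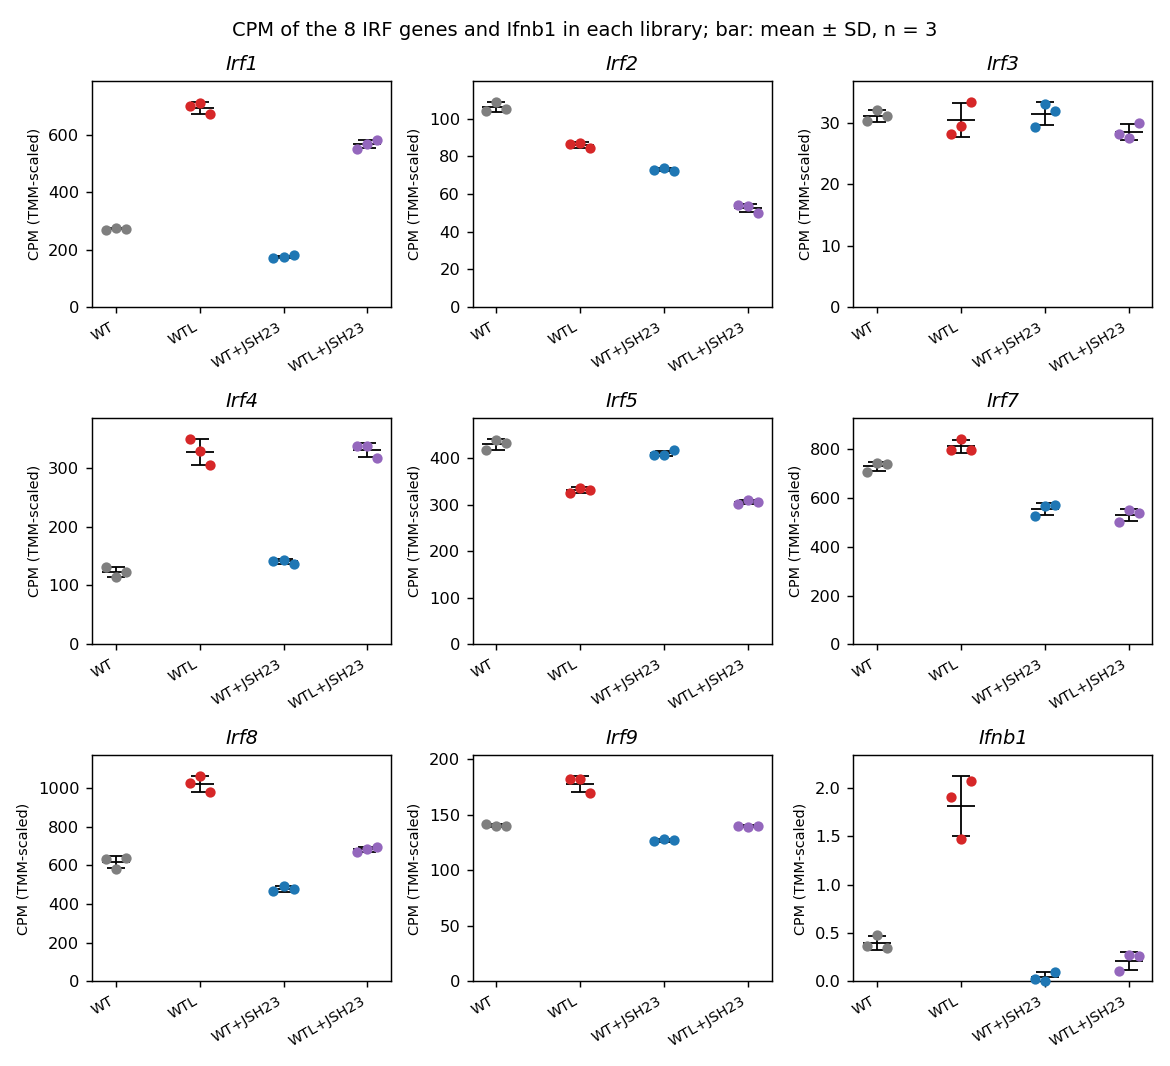
CPM (TMM-scaled, linear axis from 0) of each member in each of the 12 libraries, with 1 point per library and bars for mean ± SD (n = 3). Irf1 and Irf4 stand higher in both LPS groups, Irf2, Irf7 and Irf8 stand lower in each JSH-23 group than in its counterpart, Irf3 overlaps in all 4 pairwise comparisons, and Ifnb1 reaches 2.07 CPM at most.

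The groups with JSH-23 were compared with those without it next. Between WTL+JSH23 and WTL, 7 of 9 members passed as lower, beside 24.2% of all genes, and none passed as higher, beside 24.5%. Only Ifnb1 was more than 2-fold lower (3.25% of all genes; 3.75% were more than 2-fold higher). The median log2 fold change was -0.35 over the members and 0.02 over all genes. Between WT+JSH23 and WT, with no LPS, 6 members passed as lower (22.1% of all genes) and Irf4 passed as higher (18.8%). Ifnb1 was again the only member more than 2-fold lower (2.94% of all genes; 2.43% were more than 2-fold higher), and the medians were -0.37 for the members and -0.008 for all genes. With library totals under LPS, Irf5 no longer passed as lower and Irf4 passed as higher. These comparisons share libraries with the LPS comparisons and are not independent of them. Non-overlap of the 3 against 3 libraries was common among all genes, at 69.9% between WTL and WT, 59.1% between WTL+JSH23 and WT+JSH23, 54.8% between WTL+JSH23 and WTL and 51.5% between WT+JSH23 and WT, beside 8, 7, 7 and 7 of the 9 members.

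**Figure D3:**
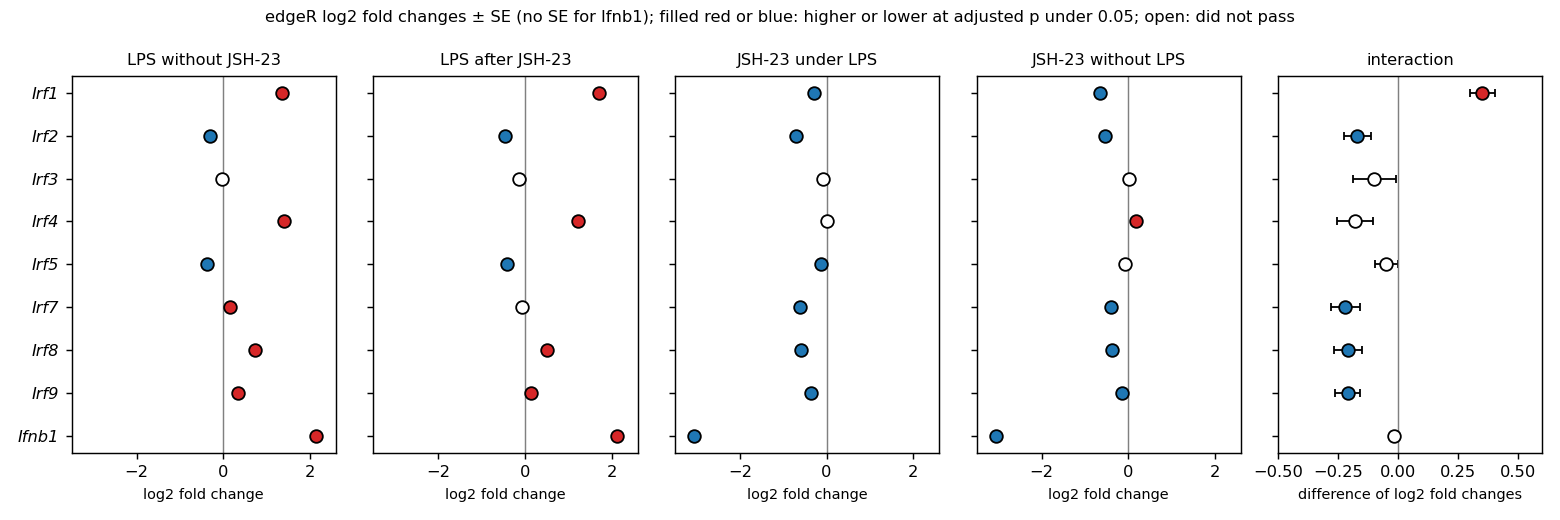
Log2 fold change (x axis) of each member in the 4 pairwise comparisons and, in the last panel with its own scale, the difference between the LPS changes after and without JSH-23; filled red or blue points passed as higher or lower, open points did not pass, and bars are SE, hidden by the points in the first 4 panels and not drawn for Ifnb1. Under TMM scaling 7 of 9 members are blue for JSH-23 under LPS, and in the last panel Irf1 at 0.35 is the only red point; the red points of Irf7 and Irf9 for LPS without JSH-23 turn to -0.18 and -0.01 on the TPM scale.

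Ifnb1 (ENSMUSG00000048806.4; mm10 chr4:88522025-88522774, minus strand, a single transcript) was the member with the largest changes and the fewest reads. Its counts were 12, 17 and 10 in WT and 49, 44 and 45 in WTL. They were 1, 0 and 3 in WT+JSH23 and 3, 7 and 6 in WTL+JSH23. The 4 groups ran in the order WTL, WT, WTL+JSH23 and WT+JSH23. In CPM the ranges did not overlap in any of the 4 pairwise comparisons. Between the 2 JSH-23 groups this rested on scaling alone. There, 3 counts stood at 0.106 CPM in WTL+JSH23 replicate 1 and at 0.102 CPM in WT+JSH23 replicate 3. Mean levels were 0.398 ± 0.0745 CPM in WT, 1.81 ± 0.312 in WTL, 0.0443 ± 0.0524 in WT+JSH23 and 0.215 ± 0.0943 in WTL+JSH23 (SD, n = 3 each). From summed counts over scaled library sizes, Ifnb1 was 4.42-fold higher with LPS without JSH-23 (exact 95% interval 3.08 to 6.48) and 4.68-fold higher after JSH-23 (1.51 to 19.3). With JSH-23 it was 8.51-fold lower under LPS (5.06 to 15.3) and 9.02-fold lower without LPS (3.25 to 34.7). These intervals cover counting error only. The level with both agents was below that with neither (0.106 to 0.278 against 0.345 to 0.483 CPM), a pair that was not tested.

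In edgeR the log2 fold changes of Ifnb1 were 2.15 with LPS without JSH-23 (adjusted p = 5.01e-06) and 2.13 after JSH-23 (adjusted p = 0.0157). This LPS rise after JSH-23 failed to pass once WT+JSH23 replicate 1 (1.91, adjusted p = 0.0566), WT+JSH23 replicate 2 (1.63, adjusted p = 0.0602) or WTL+JSH23 replicate 2 (1.88, adjusted p = 0.0626) was left out, and it was 3.35 without WT+JSH23 replicate 3. With JSH-23 the changes of Ifnb1 were -3.07 under LPS (adjusted p = 6.68e-07) and -3.05 without LPS (adjusted p = 0.000307), and both passed in all 12 fits that left out 1 library. Without WT+JSH23 replicate 3 the latter was -4.27, and over the 12 fits it ran from -4.27 to -2.55. The 2 LPS changes differed by -0.02 (adjusted p = 0.972), a difference that ran from -0.52 to 1.2, the latter without WT+JSH23 replicate 3, when 1 library was left out. A few reads in WT+JSH23 set this value, so the depth does not show whether the relative LPS response of Ifnb1 differed with JSH-23. The 19 other type I and type III interferon genes, among them the Ifna family, offered no second readout. Of these, 15 had no count in any library, 18 had at most 1 count over all 12 libraries, and Ifnk had 11 in all with at most 3 in a library; none was tested.

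A κB motif, the binding sequence of NF-κB, lies in the promoter of Ifnb1. RefSeq promoters (GRCm38.p6, the same build) were found for all 9 members, and the 250 bases before each start were searched on both strands for the ISRE core GAAANNGAAA, the γ-activated site (GAS) TTCNNNGAA, which mediates responses to interferon-γ, and the κB motif. Over 32851 promoters these were present in 2.98%, 7.02% and 7.25%. The stretch of Ifnb1 is shown because JSH-23 acts on NF-κB and Ifnb1 had the largest change with it; capitals mark the κB match, at chr4:88522886-88522925 on the minus strand.
Ifnb1: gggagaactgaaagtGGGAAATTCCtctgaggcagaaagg
No ISRE or GAS match by these letters was found in this window of Ifnb1. The search counted only GAAA repeats with the spacing of GAAANNGAAA, and GAAA occurs in the printed stretch at another spacing. The missing match therefore does not show that the promoter lacks a site for IRFs. A match is a description of letters and not a measured binding site.

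Irf1 (ENSMUSG00000018899.16; chr11:53770014-53778374, plus strand), which encodes an activator of interferon-responsive and immune genes, rose strongly with LPS. In WT its levels were 270.3, 275 and 273 CPM, and in WTL 701, 711 and 671 CPM. In WT+JSH23 they were 171, 174 and 180 CPM, and in WTL+JSH23 552, 569 and 580.2 CPM. The 4 groups did not overlap, and both the level without LPS and that with LPS were lower with JSH-23. The gain with LPS was 422 CPM without JSH-23 and 392 CPM after it, so in CPM it was not larger after JSH-23. The log2 fold change with LPS was 1.35 ± 0.0365 (SE, adjusted p = 4.91e-18) without JSH-23 and 1.70 ± 0.0373 (adjusted p = 3.03e-19) after it. With JSH-23 it was -0.64 ± 0.0369 without LPS (adjusted p = 7.8e-12) and -0.29 ± 0.0358 under LPS (adjusted p = 6.21e-07). The relative LPS rise of Irf1 was thus larger after JSH-23, by 0.35 ± 0.0513 on the log2 scale (edgeR, adjusted p = 7e-05). This difference passed in all 12 fits that left out 1 library and with library totals (0.44). The promoter of Irf1 held 1 GAS and 1 κB match, shown because both pathways are the ones at issue here, with capitals for the GAS first and the κB match last, at chr11:53769909-53770013 on the plus strand.
Irf1: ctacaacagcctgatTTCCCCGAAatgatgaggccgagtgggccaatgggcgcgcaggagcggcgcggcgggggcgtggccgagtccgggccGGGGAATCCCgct
A further RefSeq promoter of Irf1, whose window lay inside the annotated gene, held none of the 3 motifs.

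Irf2 (ENSMUSG00000031627.9; chr8:46739732-46847458, plus strand), whose product can repress genes that IRF1 activates, was lower with each agent. Its levels were 104, 109 and 105 CPM in WT and 86.7, 87.3 and 84.3 CPM in WTL. They were 72.9, 73.8 and 72.1 CPM in WT+JSH23 and 54, 53.5 and 50.2 CPM in WTL+JSH23. No group overlapped another, and the cells with both agents stood lowest. LPS changed Irf2 by -0.30 ± 0.0397 on the log2 scale without JSH-23 (adjusted p = 9.98e-07) and by -0.47 ± 0.0421 after it (adjusted p = 4.36e-09). JSH-23 changed Irf2 by -0.54 ± 0.0397 without LPS (adjusted p = 3.37e-10) and by -0.71 ± 0.0421 under LPS (adjusted p = 8.18e-12). The LPS changes of Irf2 differed by -0.17 ± 0.0578 (adjusted p = 0.0447), which passed in only 4 of the 12 fits that left out 1 library (adjusted p from 0.0386 to 0.105). It did not pass when WT replicate 4 or 6, WTL replicate 4 or 5, any replicate of WT+JSH23, or WTL+JSH23 replicate 3 was left out. Nor did it pass in edgeR with library totals (-0.08, adjusted p = 0.366) or without the filter on low counts (-0.17, adjusted p = 0.144). The TPM ratio of Irf1 to Irf2, a pair chosen after the values were seen, was 2.75 ± 0.0972 in WT, 8.79 ± 0.283 in WTL, 2.54 ± 0.0915 in WT+JSH23 and 11.9 ± 1.13 in WTL+JSH23 (SD, n = 3). Irf2 was the only member with an ISRE match in its promoter, where a GAS lay next to it; capitals mark the ISRE first and the GAS second, at chr8:46739495-46739544 on the plus strand.
Irf2: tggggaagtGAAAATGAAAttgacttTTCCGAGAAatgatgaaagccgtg
A κB match also lay in this window, at the edge of the annotated first exon.

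Irf3 (ENSMUSG00000003184.15; chr7:44997648-45002848, plus strand), the kinase-activated factor downstream of TLR4 that acts on Ifnb1, passed in none of the comparisons. Its levels were 30.2, 32.1 and 31.1 CPM in WT and 28.1, 29.5 and 33.4 CPM in WTL. They were 29.3, 33 and 31.8 CPM in WT+JSH23 and 28.1, 27.5 and 29.9 CPM in WTL+JSH23. The libraries of Irf3 overlapped in each of the 4 pairwise comparisons, and WTL replicate 6 was the highest of all 12. The log2 fold changes with LPS were -0.04 ± 0.0621 without JSH-23 (adjusted p = 0.579) and -0.14 ± 0.063 after it (adjusted p = 0.068), and those with JSH-23 were -0.09 ± 0.0642 under LPS (adjusted p = 0.273) and 0.01 ± 0.0608 without LPS (adjusted p = 0.919). The change of Irf3 after JSH-23 passed without WTL replicate 6 (adjusted p = 0.0425), without WT+JSH23 replicate 1 (adjusted p = 0.0275) or without WTL+JSH23 replicate 3 (adjusted p = 0.0342). With library totals in place of TMM, Irf3 was lower with LPS by -0.37 (adjusted p = 2.47e-05) and by -0.38 after JSH-23 (adjusted p = 3.27e-05), which relative to the median of all genes was 0.01 and -0.12.

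Irf7 (ENSMUSG00000025498.15; chr7:141262706-141266481, minus strand), itself an interferon-stimulated gene whose product amplifies type I interferon expression, was lower in both JSH-23 groups. Its levels were 708, 742 and 739 CPM in WT and 796, 843 and 798 CPM in WTL. They were 528, 567 and 570.4 CPM in WT+JSH23 and 502, 550.4 and 538 CPM in WTL+JSH23. All 6 libraries with JSH-23 stood below all 6 without it, and the 2 JSH-23 groups overlapped. JSH-23 changed Irf7 by -0.62 ± 0.0421 under LPS (adjusted p = 8.26e-11) and by -0.39 ± 0.0419 without LPS (adjusted p = 1.07e-07). With LPS, Irf7 rose by 0.15 ± 0.0418 without JSH-23 under TMM (adjusted p = 0.00273), but it changed by -0.18 with library totals (adjusted p = 0.000452) and on the TPM scale, and by 0.07 with upper quartile scaling (adjusted p = 0.117). Relative to the median of all genes, the change of Irf7 was 0.20 with TMM and with library totals. It was 0.08 on the log2(TPM + 1) scale and 0.17 on the log2(TPM + 0.1) scale. After JSH-23 the LPS change of Irf7 was -0.07 ± 0.0421 (adjusted p = 0.187), or -0.31 with library totals. The 2 LPS changes differed by -0.22 ± 0.0593 (adjusted p = 0.0122), a value that became -0.13 with library totals (adjusted p = 0.101).

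**Figure D4:**
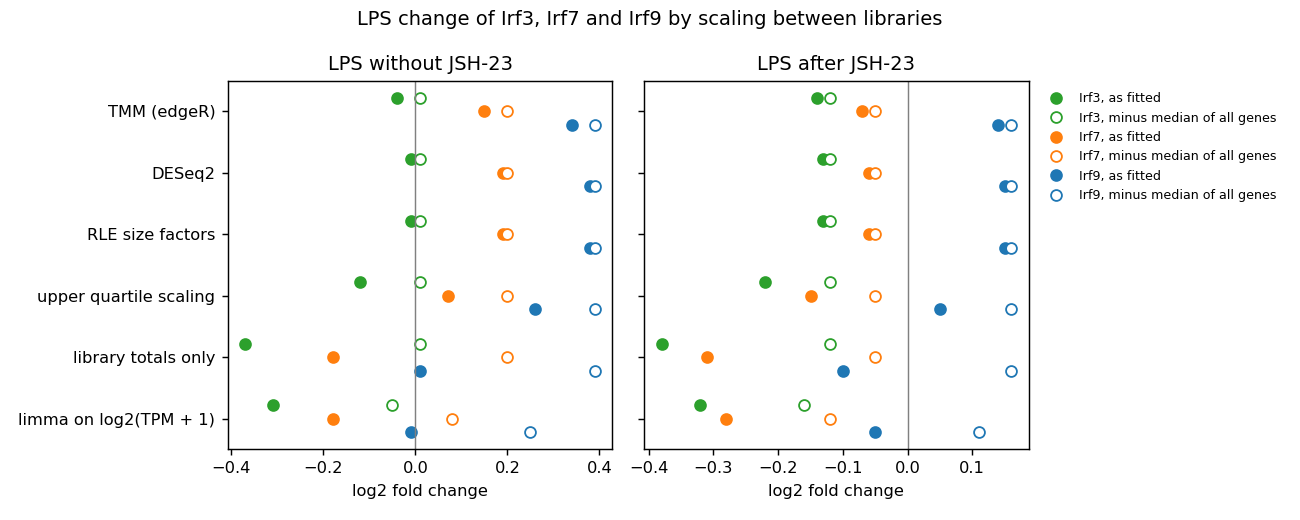
Log2 fold change of Irf3, Irf7 and Irf9 with LPS (left without JSH-23, right after it) for 6 ways of scaling, as fitted (filled) and after the median of all genes was subtracted (open). As fitted without JSH-23, Irf7 moves from 0.15 with TMM to -0.18 with library totals and Irf9 from 0.34 to 0.01, while their open points stay at 0.20 and 0.39 under both.

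Irf9 (ENSMUSG00000002325.15; chr14:55603571-55610030, plus strand) encodes the DNA-binding subunit of the complex that forms downstream of the interferon-β receptor. Its levels were 142, 139.6 and 139.5 CPM in WT and 182, 182 and 169.7 CPM in WTL. They were 126, 128 and 127 CPM in WT+JSH23 and 140, 139 and 140.1 CPM in WTL+JSH23. WTL stood apart at the top, while WTL+JSH23 lay within the range of WT or just below it. With LPS, Irf9 rose by 0.34 ± 0.0365 without JSH-23 (adjusted p = 4.09e-08) and by 0.14 ± 0.037 after it (adjusted p = 0.00338) under TMM, but with library totals the values were 0.01 (adjusted p = 0.752) and -0.10 (adjusted p = 0.0178), and with upper quartile scaling the latter was 0.05 (adjusted p = 0.22). JSH-23 changed Irf9 by -0.35 ± 0.0368 under LPS (adjusted p = 6.91e-08) and by -0.14 ± 0.0367 without LPS (adjusted p = 0.00303). The 2 LPS changes of Irf9 differed by -0.21 ± 0.052 (adjusted p = 0.00867), or by -0.11 with library totals (adjusted p = 0.115). Exons of Irf9 overlap those of Rnf31 on the same strand, so reads in the shared bases cannot be assigned by strand.

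Irf8 (ENSMUSG00000041515.10; chr8:120736358-120756694, plus strand), the lineage factor of conventional type 1 dendritic cells and monocytes, rose with LPS and was lower with JSH-23. Its levels were 635, 579.7 and 636 CPM in WT and 1026, 1059.8 and 978 CPM in WTL. They were 465, 493 and 476 CPM in WT+JSH23 and 671, 682 and 697 CPM in WTL+JSH23. The groups did not overlap, and the gain with LPS was 405 CPM without JSH-23 and 205 CPM after it. The log2 fold change with LPS was 0.73 ± 0.0416 (adjusted p = 1.6e-12) without JSH-23 and 0.52 ± 0.0418 (adjusted p = 9.05e-10) after it. JSH-23 changed Irf8 by -0.58 ± 0.0416 under LPS (adjusted p = 1.73e-10) and by -0.37 ± 0.0417 without LPS (adjusted p = 2.68e-07). The difference between the LPS changes of Irf8 was -0.21 ± 0.0587 (adjusted p = 0.0154), which did not pass without WTL replicate 5 (-0.18, adjusted p = 0.0563) or with library totals (-0.12, adjusted p = 0.145). The promoter of Irf8 is shown because it held 2 GAS matches, both in capitals, at chr8:120736172-120736228 on the plus strand.
Irf8: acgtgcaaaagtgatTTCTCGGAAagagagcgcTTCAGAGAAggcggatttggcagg
No ISRE or κB match was found there, and none of the 3 motifs in a further promoter of Irf8 or in those of Irf3, Irf4, Irf5, Irf7 and Irf9. The further window of Irf8 and both windows of Irf9 lay inside the annotated gene. For Irf9 the bases before the annotated gene were thus not searched.

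Irf4 (ENSMUSG00000021356.10; chr13:30749226-30766976, plus strand), a factor of conventional type 2 and monocyte-derived dendritic cells, rose with LPS whether or not JSH-23 had been given. Its levels were 132, 114 and 123 CPM in WT and 348, 328 and 304 CPM in WTL. They were 142, 144 and 136 CPM in WT+JSH23 and 337, 337 and 316 CPM in WTL+JSH23. The 2 LPS groups overlapped and both lay above all libraries without LPS. LPS changed Irf4 by 1.41 ± 0.0528 without JSH-23 (adjusted p = 1.11e-15) and by 1.23 ± 0.0525 after it (adjusted p = 2.02e-14). JSH-23 changed it by 0.01 ± 0.051 under LPS (adjusted p = 0.855), or 0.14 with library totals (adjusted p = 0.0239), and by 0.19 ± 0.0531 without LPS (adjusted p = 0.00594), which did not pass without WT replicate 5 (0.14, adjusted p = 0.0531). The LPS changes of Irf4 differed by -0.18 ± 0.0736 (adjusted p = 0.102), which passed without WT replicate 4 (adjusted p = 0.0399), without WTL replicate 6 (adjusted p = 0.0338) and in DESeq2 (adjusted p = 0.0392). The TPM ratio of Irf4 to Irf8, a pair also chosen after the values were seen, was 0.112 ± 0.00412 in WT, 0.18 ± 0.0105 in WTL, 0.166 ± 0.00713 in WT+JSH23 and 0.274 ± 0.0139 in WTL+JSH23 (SD, n = 3). In every group Irf4 was thus the rarer of these lineage factors, and the ratio was higher with each agent.

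Irf5 (ENSMUSG00000029771.12; chr6:29526625-29541871, plus strand), a factor that acts downstream of MyD88 on inflammatory cytokine genes, was lower with LPS. Its levels were 416, 439 and 432 CPM in WT and 325, 336 and 331 CPM in WTL. They were 407, 406 and 416 CPM in WT+JSH23 and 301, 309 and 306 CPM in WTL+JSH23. All libraries with LPS stood below all without it. LPS changed Irf5 by -0.38 ± 0.0346 (adjusted p = 4.47e-09) without JSH-23 and by -0.42 ± 0.0347 (adjusted p = 1.08e-09) after it, and these changes differed by -0.05 ± 0.049 (adjusted p = 0.553). JSH-23 changed Irf5 by -0.12 ± 0.0349 under LPS (adjusted p = 0.00912), a value that was 0.01 with library totals and 0.02 on the TPM scale and did not pass there, and by -0.07 ± 0.0344 without LPS (adjusted p = 0.131).

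Exons of Irf1, Irf3, Irf5 and Irf7 overlap a gene on the opposite strand (Gm17334, Bcl2l12, Tnpo3 and Phrf1), and whether counting used strand was not given in the sources used here, so reads of such pairs cannot be told apart with certainty. By mean TPM the members exceeded these partners, at 326 against 8.31 for Irf1 and Gm17334, 49.9 against 4.94 for Irf3 and Bcl2l12, 289 against 32.4 for Irf5 and Tnpo3, and 581 against 46.5 for Irf7 and Phrf1. Irf9 at 102 TPM was closer to Rnf31 at 71.5 TPM. Expected counts were fractional for Irf1 in 12 libraries and for Irf5 in 11, which marks reads that RSEM divided between genes, and whole for the other 7 members.

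Whether the LPS response itself differed with JSH-23 was tested as an interaction. Of the 9 members, Irf1 passed with a larger LPS change after JSH-23 (9.54% of all genes passed in this direction) and Irf2, Irf7, Irf8 and Irf9 with a change shifted downwards (8.45%). The member median was -0.17 beside 0.026 for all genes. With library totals only Irf1 passed, and the median interaction of all genes was then 0.117. Relative to that median, the differences with library totals were -0.20 for Irf2, -0.25 for Irf7, -0.24 for Irf8, -0.23 for Irf9 and 0.32 for Irf1.

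Genes upstream of IRF3 and of Ifnb1 were described from lists, each set beside the shares of all genes given above. Counts and medians of all lists are under TMM scaling and were not computed with other scalings. With library totals the median change of all genes with LPS without JSH-23 was -0.377 in place of -0.047. Calls on small changes with LPS may therefore depend on the scaling. Of 12 genes from TLR4 to IRF3, 9 passed as higher and 3 as lower with LPS without JSH-23 (median 0.47), and 2 passed as higher and 7 as lower with JSH-23 under LPS (median -0.16). Cd14, a co-receptor of TLR4, changed by 2.41 with LPS, Tank, an adaptor of the kinase TBK1, by 1.24, and Tlr4 itself by -1.38. With JSH-23 under LPS, Tlr4 was higher by 0.82, from 15.4 ± 1.00 CPM in WTL to 27.1 ± 0.761 CPM in WTL+JSH23. Ticam1, which encodes the adaptor TRIF, changed by 0.32 with LPS and by -0.18 with JSH-23 under LPS, and Tbk1, which encodes the IRF3 kinase, by 0.53 and -0.25. Of 15 nucleic acid sensing genes, 14 were found by symbol. With LPS 7 of them passed as higher and 7 as lower (median 0.01), and with JSH-23 under LPS 2 passed as higher and 10 as lower (median -0.56). Mavs, the adaptor of the RNA sensors RIG-I and MDA5, changed by -1.54 with LPS and Tlr9, an endosomal DNA sensor, by -1.36, while Tlr3, an endosomal RNA sensor, changed by -1.30 with JSH-23 under LPS. Of 7 factors of the Ifnb1 enhancer, 3 passed as higher and 2 as lower with LPS (median 0.03), and 2 as higher and 3 as lower with JSH-23 under LPS (median -0.06). Nfkb1 and Rela, which encode NF-κB subunits, changed by 1.25 and 0.76 with LPS and by -0.31 and -0.13 with JSH-23 under LPS, and Jun changed by 0.86 in the latter comparison.

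**Figure D5:**
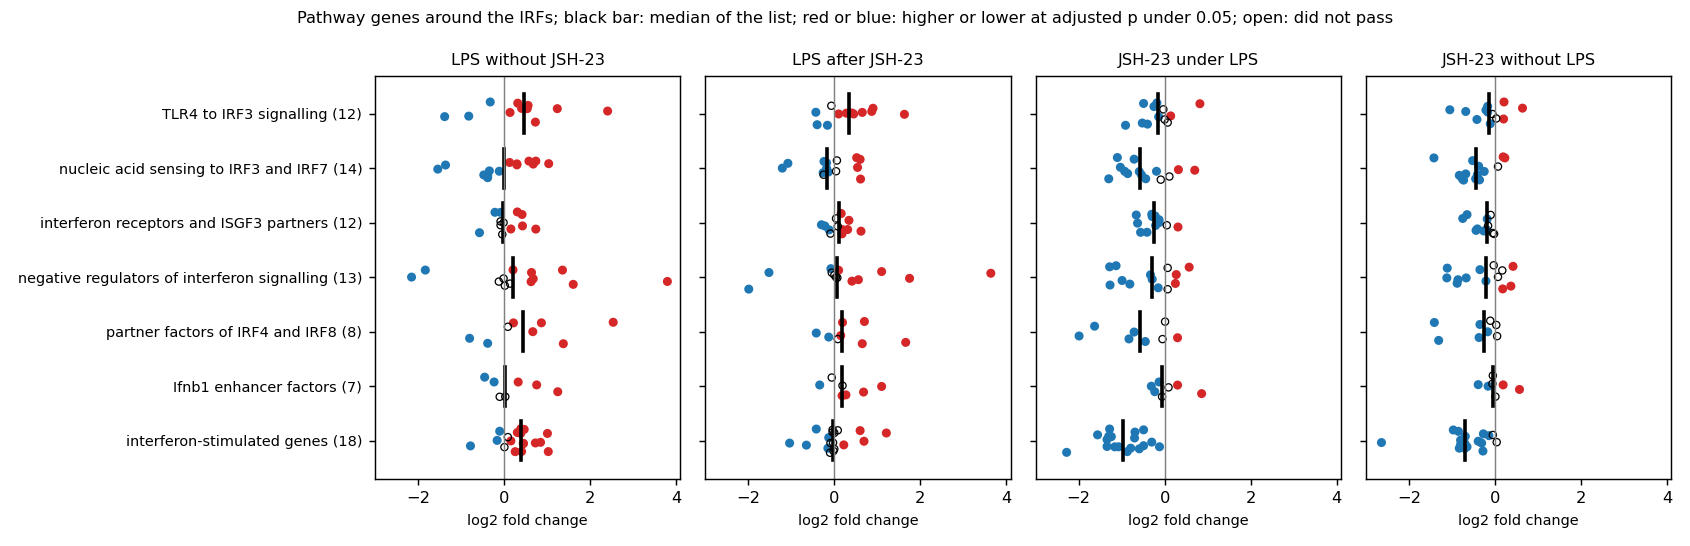
Log2 fold change of each tested gene of 7 pathway lists (list size in brackets) in the 4 pairwise comparisons, with 1 point per gene, filled red or blue where it passed as higher or lower and open where it did not, and a black bar at the list median; vertical scatter within a list has no meaning. Under TMM scaling, all 18 interferon-stimulated genes lie left of 0 for JSH-23 under LPS, with a median of -0.97.

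Genes that act with or after the IRFs were described in the same way. Of 12 interferon receptor, kinase and STAT genes, 5 passed as higher and 3 as lower with LPS (median -0.03), and 1 as higher and 10 as lower with JSH-23 under LPS (median -0.25). Stat2, a partner of IRF9, changed by -0.63 in the latter comparison, and the receptor chains Ifnar1 and Ifnar2 by -0.56 and -0.30. Ifnar2 also rose by 0.74 with LPS, whereas Ifnar1 at -0.01 did not pass. Of 8 tested partner factors of IRF4 and IRF8, of 9 listed, 5 passed as higher and 2 as lower with LPS (median 0.45), and 1 as higher and 5 as lower with JSH-23 under LPS (median -0.58). Batf, which encodes an AP-1 factor that binds DNA with IRF4, changed by 2.54 with LPS and by -0.83 with JSH-23 under LPS. Ikzf1, which encodes Ikaros, changed by 1.38 and -1.99, and Batf2, a relative of Batf, by 0.87 and -1.63. Spi1, which encodes PU.1, was 364 ± 8.27 CPM in WT, 425 ± 11.9 in WTL, 286 ± 3.06 in WT+JSH23 and 260.5 ± 4.12 in WTL+JSH23. Batf3 was lower with LPS by -0.38 and higher with JSH-23 under LPS by 0.30.

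Of 13 negative regulators of interferon signalling, 7 passed as higher and 2 as lower with LPS (median 0.21), and 3 as higher and 8 as lower with JSH-23 under LPS (median -0.29). Socs3, an inhibitor of JAK kinases, changed by 3.80 with LPS and by -1.27 with JSH-23 under LPS. Irf2bpl and Irf2bp2, named for binding of their family to IRF2, changed by -2.15 and -1.83 with LPS and by 0.57 and 0.27 with JSH-23 under LPS. Under TMM scaling, 13 of 18 interferon-stimulated genes passed as higher and 3 as lower with LPS without JSH-23 (median 0.39). A rise of similar size depended on the scaling for Irf9, at 0.34 under TMM and 0.01 with library totals. After JSH-23, 4 of the 18 passed as higher and 5 as lower with LPS (median -0.03). All 18 passed as lower with JSH-23 under LPS (median -0.97), 9 of them more than 2-fold, and 16 passed as lower without LPS (median -0.70). In the interaction 15 passed as lower and 1, Cxcl10, as higher (median -0.38). Cxcl10, a chemokine gene, was 508 ± 17.2 CPM in WTL and 105 ± 11.7 CPM in WTL+JSH23, the antiviral Mx2 169 ± 10.7 and 57.4 ± 3.33 CPM, and Ifit2 1495 ± 62.7 and 589 ± 21.3 CPM. Ifit2 and Cmpk2 both changed by -1.34 with JSH-23 under LPS, against -0.62 for Irf7, which is itself an interferon-stimulated gene.

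Genes whose pattern over the 12 libraries was most like that of a member were found by Pearson's r of log2 CPM over 8038 protein-coding genes, as a description in which the 4 groups set most of r. Closest to Irf1 was Tnf (r = 0.999), to Irf4 Zbtb46 (r = 0.998), to Irf2 Samhd1 (r = 0.996), to Irf8 Smap2 (r = 0.995) and to Irf9 Tor1aip2 (r = 0.995). Closest to Irf5 was Adap2 (r = 0.992) and to Irf7 Daxx (r = 0.992). Such values were common, as 510 genes reached r over 0.95 with Irf1, 576 with Irf4, 401 with Irf8, 238 with Irf9, 155 with Irf5, 152 with Irf2 and 128 with Irf7. Irf3, which passed in none of the comparisons, had no gene above 0.95, and its closest was Cuedc2 (r = 0.862).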

How the data were processed

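RNA-seq libraries of 12 BMDC samples were grouped by their titles. According to the submitters' processing notes, reads were aligned to mm10 with STAR 2.6.0c and quantified with RSEM. For RNA selection the labels name rRNA depletion and the study's methods a poly-A kit, which was not settled. The deposited expected counts are RSEM estimates per gene, unfiltered and not normalized between libraries. The deposited TPM values were computed by the authors with RSEM from those counts and effective transcript lengths. Symbols and positions came from GENCODE M21 on the same build, and 55154 of 55335 identifiers matched without their version.

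Expected counts were rounded, filtered with filterByExpr of edgeR 4.0.16 in R 4.3.3 (14357 genes, 99.94% to 99.95% of each library), scaled by TMM and fitted with 1 mean per group over all 12 libraries (8 residual degrees of freedom). Comparisons were tested with the edgeR quasi-likelihood F-test with Benjamini-Hochberg adjustment over all genes tested. SE is the absolute log2 fold change divided by the square root of F; none is given for Ifnb1, whose counts were too few for it. Intervals of count ratios are exact and cover counting error only. Replicates of each group differed by more than sampling noise (chi-square per gene 2.33 to 9.11, the highest with WTL+JSH23 replicate 3). Scripts were tested on simulated data. DESeq2 1.42.0, limma 3.58.1 on log2(TPM + 1) and log2(TPM + 0.1), other scalings and filters, and the omission of each library were alternatives.

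The members, lists and tests were chosen with earlier results of these data known. All members are named; from each list up to 3 genes with the largest change with LPS or with JSH-23 under LPS are named, plus genes whose role a sentence needs, and 1 gene picked by size is not reported here. Likeness used genes with a mean of at least 10 CPM in a group.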

Additional observations from a re-analysis of the deposited data

Results flagged for a closer look

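For 5 members the LPS change after JSH-23 differed from the LPS change without it by the interaction test of edgeR (adjusted over all genes). The difference on the log2 scale was 0.35 for Irf1 (1.35 without and 1.70 after JSH-23), -0.17 for Irf2 (-0.30 and -0.47), -0.22 for Irf7 (0.15 and -0.07), -0.21 for Irf8 (0.73 and 0.52) and -0.21 for Irf9 (0.34 and 0.14). LPS groups with and without JSH-23 also differ in replicate numbering, and its part in the differences was not tested. These groups differ in TMM factor too, and fits with other scalings are given below. Relative to the median of all genes, the differences were alike with TMM and with library totals. They were 0.32 for Irf1, -0.20 for Irf2, -0.25 for Irf7, -0.24 for Irf8 and -0.23 for Irf9. The difference for Irf1 passed under every alternative run. Those for Irf2, Irf7, Irf8 and Irf9 did not pass with library totals or on the TPM scale. The difference for Irf2 also did not pass in edgeR without the filter on low counts (adjusted p = 0.144).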

How the results depend on the processing

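With library totals only, 1 member passed in the interaction, with limma on log2(TPM + 1) 2 and on log2(TPM + 0.1) 1, against 5 with TMM; leaving out 1 library gave 3 to 6, with 3 when WTL replicate 5 was left out. A filter at a mean of 1 CPM removed Ifnb1, so that 0 members were more than 2-fold lower with JSH-23, under LPS or without it. Signs of the fitted values changed in these cases, and the cause was not tested. With library totals Irf7 was -0.18 with LPS without JSH-23, Irf9 -0.10 with LPS after JSH-23, Irf3 0.04 and Irf5 0.01 with JSH-23 under LPS, and the interactions of Irf5 and Ifnb1 0.04 and 0.08. On both TPM scales Irf7 and Irf9 were -0.18 and -0.01 with LPS without JSH-23, Irf9 -0.05 after it, Irf3 0.03 and Irf5 0.02 with JSH-23 under LPS, and the interaction of Irf5 0.09. Irf4 with JSH-23 under LPS was -0.01 in DESeq2 and with RLE factors, and the interaction of Ifnb1 was 0.04 in DESeq2. With limma that interaction of Ifnb1 was -0.81 on the log2(TPM + 1) scale (adjusted p = 0.0321). On the log2(TPM + 0.1) scale it was -0.07 (adjusted p = 0.959). Mean levels of Ifnb1, 0.14 TPM in WT+JSH23 and 0.593 TPM in WTL+JSH23, were below the added 1, so the value of -0.81 depends on it. Leaving out 1 library gave ranges that included 0 for Irf3 with LPS without JSH-23 (-0.11 to 0.01) and with JSH-23 without LPS (-0.03 to 0.06), Irf4 with JSH-23 under LPS (-0.03 to 0.06) and the interaction of Ifnb1 (-0.52 to 1.2). Of 418 values for single members outside the omission of libraries 365 kept direction and call, and of 540 with a library omitted 509 did.

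Replicate numbers are shared by WT and WTL and by the JSH-23 groups. Deviations of same-numbered libraries correlated at 0.037, -0.034 and 0.036 in the former and 0.2, 0.064 and 0.333 in the latter, so the numbers were not taken to pair the samples. With the replicate block 6 members passed in the interaction, Irf4 in addition (adjusted p = 0.0238), and the interaction of Ifnb1 was 0.01. Depth limits Ifnb1 after JSH-23, which had 4 counts in WT+JSH23 and 16 in WTL+JSH23 over 3 libraries each.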
